A study of Mus musculus with 12 samples.

Results

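Acute phase proteins are plasma proteins whose transcripts change in the liver during inflammation, and this account follows 10 of them in mice given corticosterone (CORT), the main glucocorticoid of rodents. The genes were Lcn2, Saa1, Saa2, Saa3, Orm1, Orm2, Orm3, Hp, Hpx and Crp. They were found by name, 10 of 55416 genes in the liver table and 10 of 55416 in the intestine table, and were chosen by reference to earlier CORT against vehicle results of these data, Lcn2's among them. Their changes and the number past a limit are therefore given as a description, with no p-value for any of them. In the CORT-treated group, Lcn2 was higher in every library of both tissues, with ratios of the group means of 49.8 in the liver and 29.6 in the duodenum. Saa1, Saa2, Saa3 and Orm2 differed widely between livers of the same group, and their CORT and vehicle values overlapped. Those of Orm1, Hpx and Crp overlapped in the liver too.

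Male C57BL6/J mice, 8 weeks old at the start, received CORT at 40 mg/kg or the vehicle (Veh; water with DMSO and Tween-80) daily for 8 weeks by subcutaneous injection. No genetic change is named for either group, and the Veh columns carry the letters WT. Whole pieces of liver and of duodenum, the tissue labelled intestine, were sequenced as 3 CORT and 3 Veh libraries per tissue, 12 in all, described as biological replicates. Whether equal numbers in the tissues are the same mouse is not given in the sources used here, and no batch is named. The values are TPM, a relative transcript abundance scaled for gene length and to nearly the same total in every library, from which neither depth nor counting error can be worked out. All of the liver libraries carried hepatocyte transcripts, with a summed level of 10 markers between 63031 and 93438 TPM, and all of the duodenal libraries enterocyte transcripts, with a sum of 10 markers between 18513 and 34917 TPM. The duodenal libraries Veh2 and Veh3 stood apart, with sums of 16 pancreatic acinar markers of 37281 and 30923 TPM against 158 to 361 TPM in the other 4, so results on the duodenum are also given without them where that matters. In tissue pieces, fewer cells of a type and less RNA per cell cannot be told apart.

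During inflammation, interleukin-6 acts on hepatocytes through STAT3 and interleukin-1 acts through NF-κB, and the C/EBP factors join both at many acute phase genes. Glucocorticoids are known to act together with these cytokines on several of the genes. Lcn2 (lipocalin 2) binds bacterial siderophores and so withholds iron. Saa1, Saa2 and Saa3 encode serum amyloid A proteins, of which the first pair are carried by high density lipoprotein and Saa3 is also made by macrophages and adipocytes. The Orm genes encode α1-acid glycoproteins, which carry drugs and other small molecules. Hp (haptoglobin) and Hpx (hemopexin) bind hemoglobin and heme, and Crp (C-reactive protein) is a pentraxin that is a weak acute phase reactant in mice.

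The stretches upstream of the starts of Lcn2, Saa1, Saa2 and Orm3 are shown because these genes had the 4 highest changes in the liver and because Saa1 and Saa2 are near copies. They hold 250 bases each, 5′ to 3′ in the direction of the gene, from RefSeq on GRCm38.p6, while the expression tables were made on GRCm39. The stretches are chr2:32387740-32387989 (minus strand) for Lcn2, chr7:46742981-46743230 (minus strand) for Saa1, chr7:46751583-46751832 (plus strand) for Saa2 and chr4:63355908-63356157 (plus strand) for Orm3. Capitals mark matches to the motifs described after them.
Lcn2: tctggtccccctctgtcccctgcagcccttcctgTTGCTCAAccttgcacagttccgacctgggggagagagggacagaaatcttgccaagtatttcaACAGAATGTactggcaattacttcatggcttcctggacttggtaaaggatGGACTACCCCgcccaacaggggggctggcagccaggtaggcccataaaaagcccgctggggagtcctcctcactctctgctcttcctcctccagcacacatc
Saa1: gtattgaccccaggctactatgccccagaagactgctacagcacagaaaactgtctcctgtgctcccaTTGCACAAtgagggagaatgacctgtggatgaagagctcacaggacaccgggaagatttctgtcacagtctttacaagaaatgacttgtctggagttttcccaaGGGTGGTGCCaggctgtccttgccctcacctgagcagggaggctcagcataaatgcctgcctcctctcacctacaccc
Saa2: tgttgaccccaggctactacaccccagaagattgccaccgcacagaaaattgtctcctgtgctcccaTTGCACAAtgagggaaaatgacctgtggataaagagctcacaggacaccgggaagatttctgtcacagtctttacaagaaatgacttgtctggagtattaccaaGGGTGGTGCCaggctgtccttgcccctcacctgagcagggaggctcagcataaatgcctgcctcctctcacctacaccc
Orm3: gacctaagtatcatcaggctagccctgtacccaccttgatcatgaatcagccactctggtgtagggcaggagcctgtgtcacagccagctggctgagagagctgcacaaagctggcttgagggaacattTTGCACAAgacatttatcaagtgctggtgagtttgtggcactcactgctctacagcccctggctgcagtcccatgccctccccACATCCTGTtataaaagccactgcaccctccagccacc

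RefSeq sequences were matched for 8 of the 10 genes, without Orm1 and Hp, and 4 motifs were searched on both strands of these upstream stretches. A κB motif (GGGNNNNNCC) was found in Lcn2, Saa1, Saa2 and Crp, 4 of 8, and 45.8% of the 32851 RefSeq promoters hold it over the same length. A C/EBP motif (TTGCNNAA) was found in 7 of 8, all but Crp, against 9.56% of promoters. A motif of the glucocorticoid receptor (ACANNNTGT) was found in Lcn2 and Orm3, 2 of 8, against 5.84% of promoters. The STAT motif (TTCNNNGAA) was in none of the 8 and in 7.02% of promoters, which says only that these letters are not in these windows. In Lcn2 the capitals are, in order, the C/EBP motif from 216 to 209 bases before the start, the glucocorticoid receptor motif from 152 to 144 and the κB motif, on the other strand, from 102 to 93. In Orm3 the glucocorticoid receptor motif lay from 38 to 30 bases before the start. In Crp, κB matches overlap each other near the start. A match is a description of the letters and not a measured binding site.

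**Figure D1:**
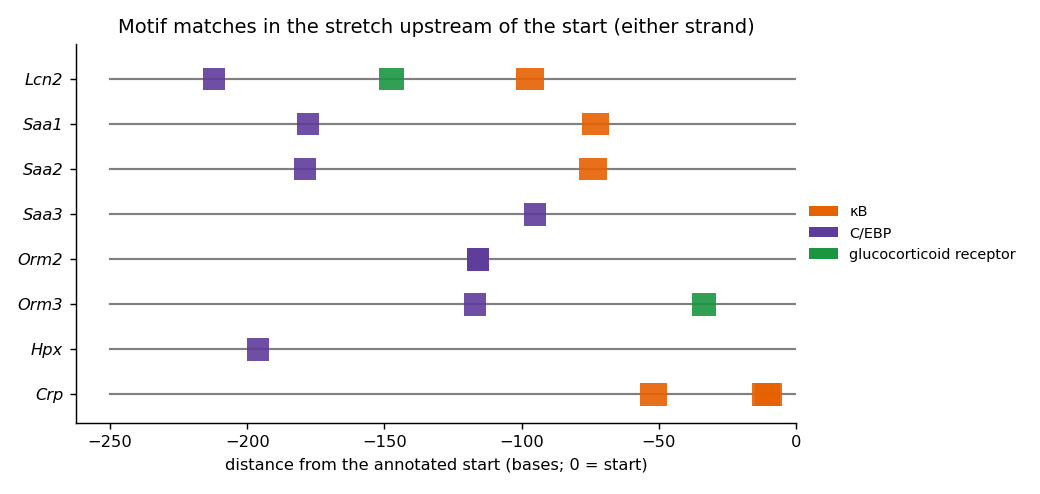
Motif matches on either strand in the 250 bases upstream of 8 genes, with the distance from the annotated start in bases on the x axis and 1 row per gene. Saa1 and Saa2 have the same pair of matches 1 base apart, and matches of the glucocorticoid receptor motif appear in Lcn2 and Orm3.

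Saa1, Saa2 and Saa3 lie together with Saa4 on chromosome 7, and Orm1, Orm3 and Orm2 lie side by side on chromosome 4. Over the upstream stretches, 238 of 249 aligned bases (95.6%) were identical between Saa1 and Saa2 and 218 of 245 (89.0%) between Orm2 and Orm3. In the transcripts, 74 of 560 windows of 50 bases of Saa1 (13.2%) occur unchanged in Saa2, and 148 of 726 of Orm1 (20.4%) occur in Orm2. How the authors' quantification divided reads between these copies was not tested, so the levels of Saa1 against Saa2 and of Orm1 against Orm2 are uncertain.

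In the vehicle-treated liver, the order of the genes by mean TPM was Hpx, Hp, Orm1, Saa1, Saa2, Crp, Orm2, Lcn2, Saa3 and Orm3. Hpx had a mean of 4630 TPM ± 1410 (SD, n = 3) and Orm3 a mean of 6.37 TPM ± 8.63 (SD, n = 3). Of these neighbours only Hp and Orm1 had ranges that did not overlap, so the rest of the order is not resolved by 3 livers. In the CORT-treated liver, Saa1 came first with a mean of 10787 TPM ± 8649 (SD, n = 3), followed by Hp at 10432 TPM ± 2361 (SD, n = 3), and Lcn2 stood sixth with 2351 TPM ± 1093 (SD, n = 3). Again 1 pair of neighbours, Crp and Saa3, did not overlap in range. The 10 genes together made up 1.70%, 4.05% and 6.51% of all TPM in livers CORT1, CORT2 and CORT3, against 1.98%, 1.16% and 0.798% in Veh1, Veh2 and Veh3. The share of Veh1 was thus above that of CORT1.

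**Figure D2:**
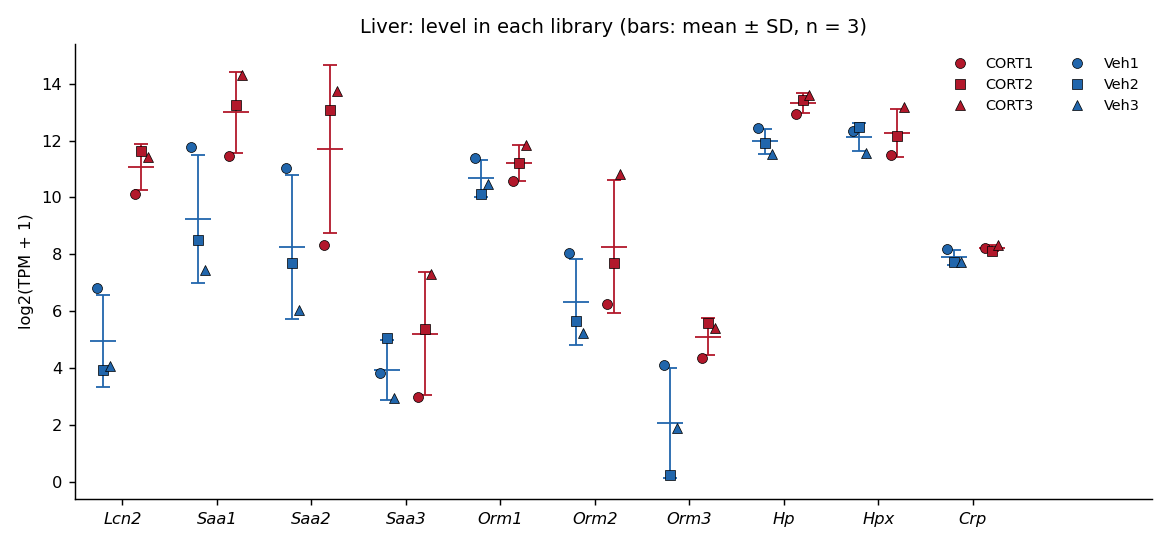
Level of the 10 genes in each liver library as log2(TPM + 1), with CORT in red and Veh in blue, symbols for the replicate number, and bars for the mean ± SD (n = 3). Lcn2, Orm3 and Hp have CORT values that lie above all Veh values, whereas Saa1, Saa2, Saa3 and Orm2 are spread over several log2 units in both groups.

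Lcn2 was at 1119, 3206 and 2728 TPM in the 3 CORT livers and at 111, 14.3 and 16.1 TPM in the Veh livers. All CORT values were above all Veh values, and Veh1 was the highest of its group. The log2 fold change was 6.12 (SE 0.79), and it ran from 5.61 to 7.05 when each of the 6 libraries was left out. Lcn2 is also a granule protein of neutrophils, and the summed level of 12 neutrophil markers was 1.01, 33.3 and 38.3 TPM in the CORT livers and 6.57, 25.4 and 6.02 TPM in the Veh livers. The neutrophil sum was lowest in CORT1 and highest in CORT3, and its ranges overlapped between the groups. The part of neutrophils in the Lcn2 values was not tested.

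Saa1 and Saa2, the genes of the circulating serum amyloid A, differed widely among the livers of each group. Saa1 was at 2785, 9613 and 19964 TPM in the CORT livers and at 3519, 365 and 172 TPM in the Veh livers. Saa2 was at 321, 8638 and 13670 TPM in the CORT livers and at 2077, 206 and 65.1 TPM in the Veh livers. For both genes liver Veh1 lay above liver CORT1, and the other CORT livers lay above all Veh livers. The log2 fold change was 3.74 (SE 1.17) for Saa1 and 3.46 (SE 1.70) for Saa2, and neither passed the limits of an adjusted p of 0.05 and a fold change of 1.5. Without liver Veh1 the change of Saa1 was 5.01 and passed them. The sum of Saa1 and Saa2 was 0.315%, 1.85% and 3.42% of all TPM in CORT1 to CORT3 and 0.562%, 0.0573% and 0.0238% in Veh1 to Veh3. The ratio of Saa1 to Saa2 was 8.67 in CORT1 and between 1.11 and 2.65 in the other 5 livers.

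Saa3 was at 6.87, 40.3 and 157 TPM in the CORT livers and at 13.4, 32.3 and 6.67 TPM in the Veh livers, far below Saa1 in each. Its groups overlapped and the log2 fold change was 1.27 (SE 1.06), not past the limits. The 3 livers with the highest Saa3, CORT3, CORT2 and Veh2, were also the 3 with the highest neutrophil sums, given with Lcn2. The summed level of 9 Kupffer cell and macrophage markers was 133, 219 and 390 TPM in the CORT livers and 152, 182 and 186 TPM in the Veh livers, highest in CORT3, as Saa3 was. None of the 4 neutrophil markers and none of the 9 macrophage markers tested in the liver passed the limits, against 6.92% of all genes. With limma's unadjusted p under 0.05 and a fold change over 1.5 it was also 0 in either list, against 15.5% of all genes. With so few markers, nothing is read from these counts. The part of either cell type in the Saa3 values was not tested.

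**Figure D3:**
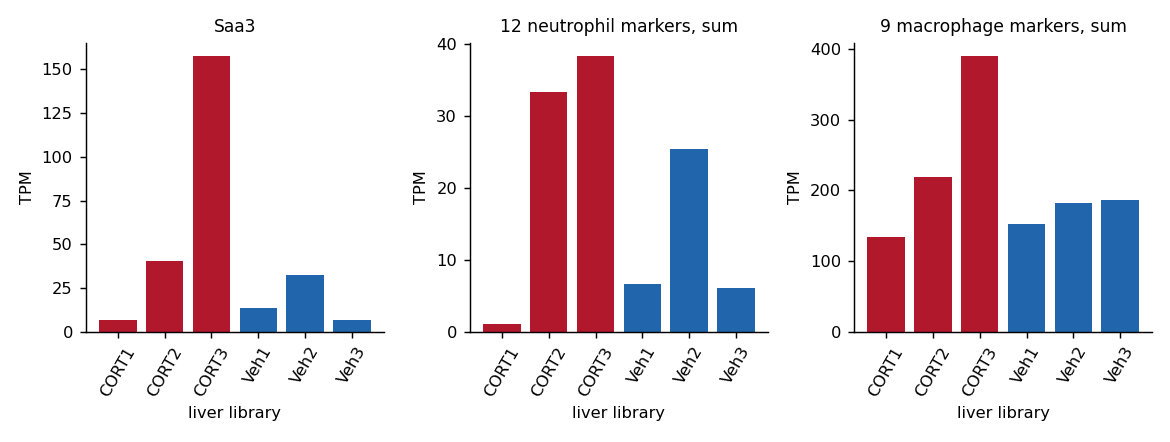
Level of Saa3 and summed levels of 12 neutrophil and 9 Kupffer cell and macrophage markers in TPM (y axes, from 0) in the 6 liver libraries, with CORT in red and Veh in blue. CORT3 is the highest library in all 3 panels, and CORT1 is lowest in both marker sums.

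The α1-acid glycoproteins differed in spread. Orm1, the most abundant of them, was at 1533, 2376 and 3667 TPM in the CORT livers and at 2701, 1122 and 1429 TPM in the Veh livers, with overlapping groups and a log2 fold change of 0.54 (SE 0.41). Orm2 was at 75.8, 209 and 1817 TPM with CORT and at 263, 49.5 and 36.8 TPM with Veh, again overlapping, with a log2 fold change of 1.95 (SE 1.21). That of Orm2 fell to 0.67 without CORT3, which held most of the CORT signal. Orm3 was at 19.4, 46.8 and 41.7 TPM with CORT and at 16.2, 0.18 and 2.70 TPM with Veh. Its groups did not overlap, but CORT1 and Veh1 were close to each other, and the log2 fold change of 3.04 (SE 0.90) did not pass the limits except without Veh1, when it was 4.05. The ratio of Orm1 to Orm2 ran from 2.02 in CORT3 to 38.8 in Veh3.

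Of the scavenging proteins, haptoglobin was higher and hemopexin was not separated. Hp was at 7820, 11062 and 12414 TPM in the CORT livers and at 5522, 3897 and 2985 TPM in the Veh livers, without overlap, and the log2 fold change of 1.35 (SE 0.27) passed the limits. This depended on the libraries used. Leaving out a library kept it past them in 1 of 6 fits, that without Veh1, and the change stayed between 1.14 and 1.59. Hpx was at 2846, 4553 and 9216 TPM with CORT and at 5185, 5677 and 3027 TPM with Veh, with a log2 fold change of 0.14 (SE 0.44) that turned to -0.31 without CORT3 and to -0.14 without Veh3. Crp was at 295, 274 and 319 TPM with CORT and at 294, 214 and 212 TPM with Veh, the lowest SD of the 10 genes on the log2(TPM + 1) scale in both groups, with a log2 fold change of 0.32 (SE 0.17).

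Past the limits in the liver were 2 of the 10 genes, Lcn2 and Hp, against 6.92% of all 11699 genes tested. Groups that did not overlap were found for 3 of 10, Lcn2, Orm3 and Hp, against 32.2% of all genes. The median log2 fold change of the 10 genes was 1.65, beside 0.08 for all genes tested. Since the genes were chosen with these changes known, nothing is read from these counts.

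The livers within a group differed in the same way for most of the genes. CORT1 was the lowest CORT liver for 9 of the 10 genes and CORT3 the highest for 8. Among the Veh livers, Veh1 was the highest for 8 genes and Veh3 the lowest for 7. CORT1 lay below Veh1 for 6 genes, while CORT3 lay above all 3 Veh livers for all 10. The shares of all genes with these orders were not worked out, and the 10 were chosen with their changes known. A difference of whole libraries therefore cannot be told apart from one of these genes, and nothing is read from these counts. On the log2(TPM + 1) scale, the SD among Veh livers was above the median SD of all tested genes (0.22) for all 10 genes and above their 95th percentile (0.73) for 6. Among CORT livers it was above the median (0.19) for 9 and above the 95th percentile (0.72) for 6. The members' SD ran from 0.27 to 2.53 with Veh and from 0.11 to 2.95 with CORT, with Crp lowest and Saa2 highest in both.

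In the duodenum, Lcn2 was the only gene of the 10 above 13 TPM in any library. It was at 55.7, 75.5 and 51.8 TPM in the CORT-treated group and at 2.49, 1.12 and 2.58 TPM in the vehicle-treated group. The groups were far apart compared with the spread within each, and the log2 fold change was 4.36 (SE 0.25), between 4.11 and 4.49 with each library left out. Without the 2 Veh libraries that carry acinar RNA the change was 4.13 but no longer passed the limits, in a fit where the lone Veh library was assumed to vary like the CORT libraries. The neutrophil sum in the duodenum was 4.97, 9.79 and 9.05 TPM with CORT and 1.46, 21.1 and 9.95 TPM with Veh, with overlapping groups. Its part in the Lcn2 values was not tested.

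Of the other genes, 3 reached the mean of 1 TPM in a group that was needed for a test, and Hp and Crp reached it only through the CORT group, where they were high. Hp was at 2.82, 1.31 and 12.9 TPM with CORT and at 0.79, 0.53 and 0.51 TPM with Veh, without overlap, and CORT3 stood far above the rest. The log2 fold change of Hp was 1.63 (SE 0.60) and 0.89 without CORT3. Adipocytes also make Hp, and of their defining markers Adipoq was at 0.78, 0 and 3.02 TPM with CORT and at 0.81, 0.05 and 0 TPM with Veh, highest in CORT3. Lep, Plin1, Retn and Car3 were also highest in CORT3, as was Lipe. Cfd, another adipocyte marker, was highest in Veh1, at 0.75, 0 and 1.66 TPM with CORT and at 4.13, 2.36 and 0 TPM with Veh, while Cidec was highest in CORT1 and Fabp4 in CORT2. The summed level of the 9 adipocyte markers, most of it Cidec and Lipe, was 308 to 404 TPM with CORT and 197 to 235 TPM with Veh. Of the 6 tested, 1 rose, Fabp4 (log2 fold change 1.28, limma adjusted p = 0.0272), against 2.15% of all genes past the limits. The call of Fabp4 held in 1 of the 6 fits with a library left out, and nothing is read from this count. The part of adipocytes in the Hp values was not tested. Crp was at 1.42, 1.71 and 1.84 TPM with CORT and at 0.50, 0.33 and 0.35 TPM with Veh, also without overlap, with a log2 fold change of 0.93 (SE 0.19). Saa3 was at 0.78, 0.20 and 2.91 TPM with CORT and at 1.68, 1.26 and 5.07 TPM with Veh, overlapping, with a log2 fold change of -0.71 (SE 0.53). Neither Hp, Crp nor Saa3 passed the limits.

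The remaining 6 genes were near 0 in the duodenum and were not tested. Saa1 was between 0.15 and 0.68 TPM in the 6 libraries, Hpx between 0 and 0.19 TPM, and Orm1 at 0.92 and 0.10 TPM in CORT3 and CORT1 and listed at 0 elsewhere. Orm2 and Orm3 were at 0.09 TPM in CORT3 and listed at 0 in the other 5, and Saa2 was listed at 0 in all 6. In the order by mean, Saa3 and Lcn2 led the vehicle-treated duodenum with overlapping ranges, and Lcn2 led the CORT-treated duodenum with no overlap with Hp, the next. Past the limits was 1 gene, Lcn2, of the 4 tested and of 10 in all, against 2.15% of all 13607 genes tested. Lcn2, Hp and Crp did not overlap between groups, against 26.4% of all genes. As in the liver, nothing is read from these counts.

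**Figure D4:**
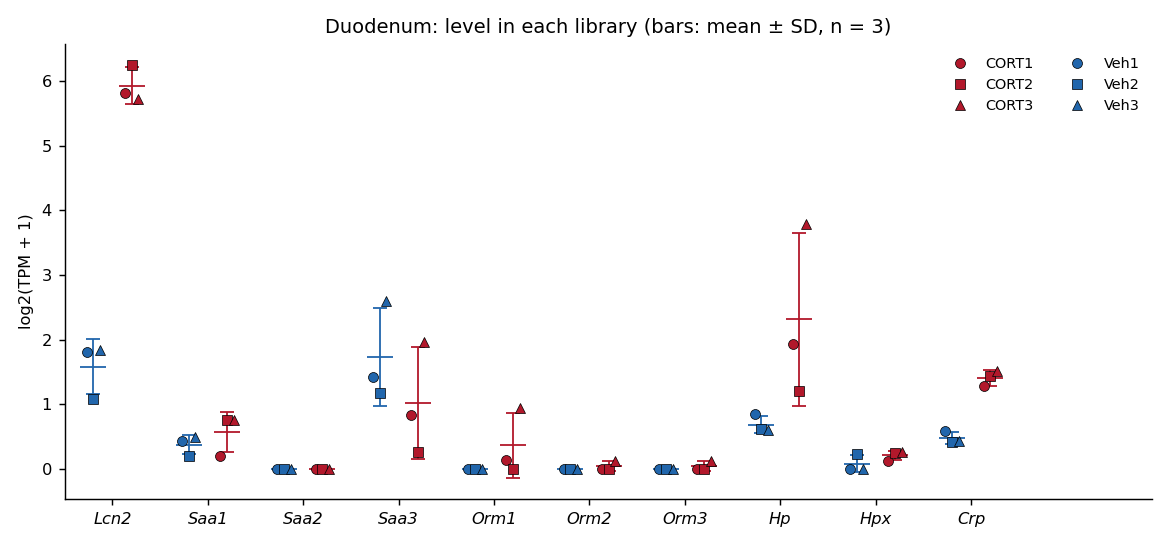
Level of the 10 genes in each duodenal library as log2(TPM + 1), with CORT in red and Veh in blue, symbols for the replicate number, and bars for the mean ± SD (n = 3). Lcn2 lies between 51.8 and 75.5 TPM with CORT and under 2.6 TPM with Veh, and Saa2, Orm2 and Orm3 lie at or next to 0.

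The difference between the tissues, taken as the liver change minus the duodenal change in a joint fit of the 12 libraries, did not pass the limits for any of the 10 genes, against 3.60% of all 14806 genes tested. With limma's unadjusted p under 0.05 in place of the adjusted one it was 3 of 10, Saa1, Orm3 and Crp, against 14.4% of all genes. For Lcn2 the difference was 1.76 (SE 0.93) on the log2 scale, and it was 2.69 and past the limits without liver Veh1. Saa1 differed by 3.55 (SE 1.33), Saa2 by 3.46 (SE 1.92) and Orm3 by 3.00 (SE 1.02), all genes at or next to 0 in the duodenum. For Saa1 and Orm3, too, the difference passed the limits without liver Veh1. Orm2 and Saa3 differed by 1.91 (SE 1.37) and 1.98 (SE 1.32). The other 4 differences were small or negative, 0.18 for Orm1, 0.01 for Hpx, -0.28 for Hp and -0.61 (SE 0.20) for Crp. A pseudocount of 1 TPM keeps the change of genes near 0 small, so a difference that rests on them describes this scale.

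**Figure D5:**
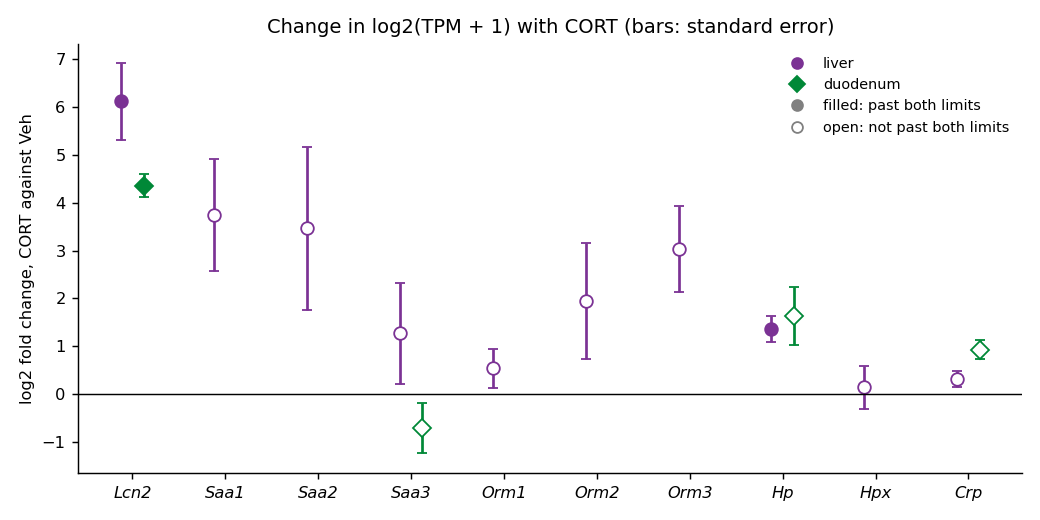
Log2 fold change of CORT against Veh on the log2(TPM + 1) scale for genes tested in the liver (purple circles, 10 genes) and in the duodenum (green diamonds, 4 genes), with bars for the standard error. Filled symbols passed the limits of an adjusted p of 0.05 and a fold change of 1.5, which were Lcn2 in both tissues and Hp in the liver.

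Among 24 further acute phase proteins, 23 were tested in the liver, where 6 rose, against 6.92% of all genes past the limits in either direction, none fell, and the median log2 fold change was 0.49 beside 0.08 for all genes. Serpina3m, a serine protease inhibitor of a family with near-identical copies, was at 796, 1026 and 811 TPM with CORT and at 202, 164 and 218 TPM with Veh (log2 fold change 2.17, SE 0.17, limma adjusted p = 0.00187). The metallothionein Mt1, which binds zinc, rose from 290 to 870 TPM with Veh to 4382 to 6245 TPM with CORT (log2 fold change 3.23, limma adjusted p = 0.00702), and Mt2 by 3.28 (limma adjusted p = 0.0342). Lbp, which presents lipopolysaccharide to Cd14, rose by 1.39 (limma adjusted p = 0.0211), the metalloreductase Steap4 by 1.51 (limma adjusted p = 0.0336) and Saa4, the serum amyloid A that is little changed by inflammation, by 1.96 (limma adjusted p = 0.0436). The calls of Serpina3m and Mt1 held in all 6 fits that left a library out, while those of Lbp, Steap4 and Mt2 held in 1 and that of Saa4 in 2. The fibrinogen genes had log2 fold changes of -0.01 for Fga, -0.03 for Fgb and -0.14 for Fgg.

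In the duodenum 11 of these 24 were tested and 1 rose, against 2.15% of all genes past the limits. With limma's unadjusted p under 0.05 and a fold change over 1.5 it was 5, against 10.3% of all genes. As in the liver, the list was chosen with results known, and nothing is read from these counts. Lrg1, a leucine-rich secreted glycoprotein, was at 6.59, 7.62 and 5.02 TPM with CORT and at 2.03, 2.31 and 2.41 TPM with Veh (log2 fold change 1.18, SE 0.17, limma adjusted p = 0.0272). Its call held in 1 of the 6 fits with a library left out, that without CORT3. Mt1 and Mt2 had log2 fold changes of 1.39 and 2.22 there, with groups that did not overlap, and did not pass (limma adjusted p = 0.102 and 0.139). Between the tissues, the change of Serpina3m was higher in the liver by 1.91 (limma adjusted p = 0.000962) and that of Steap4 by 1.48 (limma adjusted p = 0.0455), and that of Serpina1b was lower in the liver by 1.39 (difference -1.39, limma adjusted p = 0.0218). Serpina1b encodes an α1-antitrypsin and also has near-identical copies.

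Plasma proteins that fall in the acute phase had no change past the limits, with 12 of 12 tested in the liver and 6 of 12 in the duodenum. With limma's unadjusted p under 0.05 and the same fold change it was 1 in each tissue. The shares of all genes were 15.5% in the liver and 10.3% in the duodenum. The gene in the liver was Ahsg, which was lower, and that in the duodenum was Apoa1, which was higher. Duodenal Apoa1 was at 21426, 15581 and 21477 TPM with CORT and at 12149, 8573 and 8173 TPM with Veh. Its groups did not overlap (log2 fold change 1.02, limma adjusted p = 0.0752). The median log2 fold change of the listed genes in the liver was -0.18. Ahsg (fetuin A) was at 4333, 5211 and 6572 TPM in the CORT livers and at 7527, 10985 and 7675 TPM in the Veh livers, without overlap (log2 fold change -0.70, limma adjusted p = 0.108). Albumin had a log2 fold change of 0.03 and transthyretin of 0.07.

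Of 27 cytokines, receptors and regulators of the acute phase, 20 were tested in the liver and 4 rose, against 6.92% of all genes past the limits. With limma's unadjusted p under 0.05 and a fold change over 1.5 it was 7, against 15.5% of all genes. This list too was chosen with results known, and nothing is read from these counts. Those that rose past the limits included receptors of both cytokines. Il6ra, the receptor of interleukin-6, was at 32.2, 24.6 and 34.2 TPM with CORT and at 8.36, 9.14 and 15.8 TPM with Veh (log2 fold change 1.41, SE 0.25, limma adjusted p = 0.0232). Il1r1, the receptor of interleukin-1, was at 33.0, 19.1 and 34.0 TPM with CORT and at 10.8, 5.35 and 6.71 TPM with Veh (log2 fold change 1.79, SE 0.30, limma adjusted p = 0.0195). The transcription factor Creb3l3, active in hepatocytes, rose by 0.96 (limma adjusted p = 0.0192). These calls held in 2, 3 and 2 of the 6 fits that left a library out, for Il6ra, Il1r1 and Creb3l3. The cytokines themselves were near 0 in the liver, with Il6 listed at 0 in 4 of 6 libraries and at most 0.15 TPM, Tnf at most 0.21 TPM and Il1b between 0.12 and 0.98 TPM.

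The signaling genes between receptor and target did not pass the limits in the liver. Il6st, the shared signaling subunit, was between 18.0 and 24.5 TPM with CORT and between 10.8 and 18.7 TPM with Veh. Stat3 was between 38.5 and 51.0 TPM with CORT and between 34.4 and 46.1 TPM with Veh. Its target and inhibitor Socs3 was at 3.12, 5.64 and 12.4 TPM with CORT and at 6.77, 41.9 and 3.86 TPM with Veh. The CORT livers had the same order for Socs3 as for Saa1. Among the Veh livers Veh3 was lowest for both, while Veh2 was highest for Socs3 and Veh1 for Saa1. Cebpb was at 35.8 to 53.4 TPM with CORT and 56.1 to 79.3 TPM with Veh (log2 fold change -0.48, limma adjusted p = 0.190), and Cebpd at 5.57 to 9.40 TPM with CORT and 1.43 to 5.29 TPM with Veh (log2 fold change 1.05, limma adjusted p = 0.123), both without overlap. Nfkbia, the inhibitor of NF-κB, had a log2 fold change of 0.24, and Nr3c1, the glucocorticoid receptor, of -0.01.

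In the duodenum none of the 22 regulators tested passed the limits, against 2.15% of all genes. With limma's unadjusted p under 0.05 and a fold change over 1.5 it was 2, Socs3 and Creb3l3, against 10.3% of all genes. Socs3 was at 3.91, 5.48 and 4.92 TPM with CORT and at 10.6, 6.12 and 10.5 TPM with Veh, without overlap (log2 fold change -0.77, limma adjusted p = 0.138). Creb3l3 was at 478, 353 and 579 TPM with CORT and at 325, 257 and 318 TPM with Veh. Its groups did not overlap (log2 fold change 0.63, limma adjusted p = 0.175). Stat3 was also without overlap, between 37.3 and 42.8 TPM with CORT and between 44.9 and 47.4 TPM with Veh (log2 fold change -0.21, limma adjusted p = 0.355). Il6 was listed at 0 in all 6 duodenal libraries, Tnf was at most 0.33 TPM, and Il1b was between 1.08 and 3.27 TPM. The log2 fold changes of Il6ra, Il6st, Cebpb, Cebpd, Nfkbia and Nr3c1 were 0.09, 0.18, -0.52, 0.02, 0.07 and -0.11. The change of Il1r1 was higher in the liver than in the duodenum by 1.76 (limma adjusted p = 0.0391), while for Il6ra the difference of 1.32 did not pass (limma adjusted p = 0.0615).

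Of 15 receptors and partners of these proteins, Cd163, the macrophage receptor that takes up complexes of haptoglobin and hemoglobin, rose in the liver. It was at 8.66, 13.8 and 20.9 TPM with CORT and at 2.19, 0.80 and 2.80 TPM with Veh (log2 fold change 2.39, SE 0.37, limma adjusted p = 0.0159), and the call held with each library left out. In the duodenum it was at 2.01, 4.06 and 3.73 TPM with CORT and at 0.17, 0.47 and 0.51 TPM with Veh, without overlap, and it reached the mean of 1 TPM needed for a test only through the CORT group, so its log2 fold change of 1.60 (SE 0.26) is given as a description. No other of the 10 tested in the liver and the 12 tested in the duodenum passed the limits. With limma's unadjusted p under 0.05 and a fold change over 1.5 it was 2 in the liver and 7 in the duodenum, Cd163 included. The shares of all genes past the limits were 6.92% in the liver and 2.15% in the duodenum. By unadjusted p they were 15.5% and 10.3%, and nothing is read from these counts. In the duodenum the macrophage marker sum was 161, 197 and 218 TPM with CORT and 112, 189 and 201 TPM with Veh, with overlapping groups. Of its genes, Clec4f was at 10.3, 5.31 and 7.42 TPM with CORT and at 0.05, 0.15 and 0 TPM with Veh. Clec4f too was tested only through the CORT group. The others tested had log2 fold changes of -0.17 for Adgre1, -0.13 for Timd4, 0.07 for Csf1r, 0.12 for C1qa and 0.28 for C1qb. Vsig4 was listed at 0 in every duodenal library. The part of macrophages in the Cd163 values was not tested. Mmp9, a protease that Lcn2 binds, was at 1.23 to 3.41 TPM with CORT and 5.46 to 9.06 TPM with Veh in the duodenum (log2 fold change -1.32, limma adjusted p = 0.0746), and its change there was lower than in the liver (difference 1.53, limma adjusted p = 0.0424).

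The hemoglobin genes, whose products Hp binds, mark blood in the tissue pieces. Hbb-bs was at 415, 588 and 442 TPM in the CORT livers and at 656, 225 and 581 TPM in the Veh livers. In the duodenum it was at 132, 267 and 174 TPM with CORT and at 86.9, 44.2 and 44.9 TPM with Veh, without overlap (log2 fold change 1.70, limma adjusted p = 0.0606). Among the duodenal libraries Hbb-bs was highest in CORT2 and Hp in CORT3, and the part of blood in the Hp values was not tested.

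By profile over all 12 libraries, each tissue centred on its Veh mean, the gene nearest to Lcn2 among 10500 was Fkbp5, a glucocorticoid-induced co-chaperone, with a root mean square difference of 1.38 on the log2 scale. Gm43305 (1.54), Zfp981 (1.71), Chd9 (1.91) and Pnmt (1.91) came next. Fkbp5 was at 273, 249 and 221 TPM in the CORT livers and at 7.14, 12.7 and 19.5 TPM in the Veh livers, without the high value of Veh1 that Lcn2 had. For Saa1, the ranking was made over the 6 livers from the 11699 genes tested there, with Saa2, Orm3 and the rest of the 10 genes left out. Outside the 10 genes, the nearest to Saa1 were Zfp981 (1.26), Serpine2 (1.42), Mrap (1.46), Pnmt (1.5) and Rarres1 (1.51). These distances include the size of the change, which differed by up to several log2 units from gene to gene.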

How the data were processed

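Total RNA of liver and duodenum was sequenced as paired reads after TruSeq library preparation. The authors used SeqPrep and Sickle for trimming, HISAT2 for alignment (GRCm39, per the labels), StringTie for assembly and RSEM for quantification, and deposited TPM of each gene in each library without pooling. TPM hide the depth, so precision rests on 3 libraries per group.

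Starting from these values, log2(TPM + 1) was fitted for all genes averaging 1 TPM or more in a group, with limma 3.58.1 in R 4.3.3 (eBayes with a trend), per tissue and, for the difference between tissues, jointly with an interaction term. Adjustment was by Benjamini-Hochberg over all genes tested. A gene passed the limits with an adjusted p up to 0.05 and more than 1.5-fold change. The authors called DEGs with DESeq2, which needs counts. The fits were tested on simulated data.

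The 10 genes and the lists were chosen with earlier results of these data known. Named beside the 10 were list genes past the limits (up to 6 per list and tissue, smallest adjusted p), 11 regulators whatever their result, and the 5 nearest profiles. A result that this rule selects is not reported here. Ahsg, Alb, Ttr, Apoa1, fibrinogen, Hbb-bs, Serpina1b, Mmp9 and the adipocyte markers other than Fabp4 were named after their values were seen. The same holds for S100a8, Retnlg and the macrophage markers other than Clec4f. Alternatives were the pseudocount, filter, scaling, trend, replicate block, limits, removal of acinar genes, and leaving out each library. Leaving out both duodenal Veh libraries with acinar RNA was added after seeing the data.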

Additional observations from a re-analysis of the deposited data

Results flagged for a closer look

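None of the 10 genes met a criterion for a closer look, and groups of 3 libraries are too small for a test of single outlying values. Of the other genes named, 10 had a tissue difference past the limits in the joint limma fit, against 3.60% of all 14806 genes tested. The difference in the change with CORT is given here as the liver change minus the duodenal change on the log2 scale. It was higher in the liver for Serpina3m (1.91), Steap4 (1.48), Il1r1 (1.76), Mmp9 (1.53), Chd9 (1.58), Serpine2 (3.38), Mrap (2.07) and Rarres1 (3.47). It was lower in the liver for Serpina1b (-1.39) and Clec4f (-3.0). Steap4, Serpina3m and Rarres1 were too low in the duodenum to be tested there alone, and Mmp9 too low in the liver. Clec4f was tested in the duodenum only because of its level in the CORT group. Serpine2, Mrap and Rarres1 were named for a liver profile near that of Saa1, size of change included. A large liver change was thus part of their choice, and nothing is read from this count.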

How the results depend on the processing

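Of the 10 genes, 1 passed the limits in the duodenum and 2 in the liver, and no difference between tissues did. In the duodenum this became 2 without a trend (Crp added), 3 by unadjusted p and 0 without the Veh libraries that carry acinar RNA, and it was 1 with each library left out. In the liver it became 1 without a filter on low values, 1 with a replicate block, 4 by unadjusted p, and 1 to 4 with each library left out, 4 being without Veh1. For differences between tissues it became 1 with a pseudocount of 0.1 TPM (Crp), 3 by unadjusted p, and 0 to 3 with each library left out, 3 being without liver Veh1. Of 78 list genes, tested or not, 2 passed the limits in the duodenum. This became 0 without a filter, 0 with a replicate block, 15 by unadjusted p and 0 to 3 with each library left out. In the liver 11 passed. This became 2 without a filter, 7 with a replicate block, 18 by unadjusted p and 4 to 8 with each library left out, 4 being without CORT3. The shares of all genes tested were 2.15% in the duodenum, 6.92% in the liver and 3.60% for differences between tissues. By unadjusted p these shares were 10.3%, 15.5% and 14.4%. They were not worked out for the other settings, and nothing is read from these counts.

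Signs turned only for changes near 0. The difference between tissues became -0.91 for Orm1 and -0.70 for Hpx with a pseudocount of 0.1 TPM, and it was -0.0812 for Hpx with median-ratio scaling and -0.0639 without the acinar Veh libraries. With each library left out it ran from -0.13 to 0.55 for Orm1 (turned without liver CORT3 or Veh2), from -0.44 to 0.41 for Hpx (turned in 4 of 12 fits) and from -0.83 to 0.47 for Hp (turned without duodenal CORT3). The liver change of Hpx ran from -0.31 to 0.54 (turned without CORT3 or Veh3). Of 400 values recomputed for the 10 genes, 365 kept their sign and their side of the limits. Of the rest, 13 turned, 14 newly passed and 8 no longer passed. The cause of these moves was not tested. The filter, trend, replicate block and limits left each fold change as it was, so under them no sign could turn. Most of the values were also not past the limits to begin with. The count of 365 is therefore not read as a measure of stability.

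Equal replicate numbers were not taken to pair the libraries, since the sources used here do not say that they do. Deviations from the group means correlated between -0.17 and 0.05 for CORT and Veh of the same number and tissue and between -0.13 and 0.10 for the same number across tissues, and the replicate block changed no call beyond Hp in the liver and the list genes counted here. TPM do not show the depth behind a value, so it could not be said how much of the spread of low genes is counting error.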
